A study of Mus musculus with 4 samples.

Results

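Deoxynucleoside triphosphates (dNTPs) are the building blocks of DNA, and cells keep their pools small outside of S phase. Ribonucleotide reductase makes deoxynucleotides from ribonucleotides, thymidylate synthase and thymidylate kinase supply the thymidine branch, salvage kinases take up free deoxynucleosides, and a group of hydrolases removes surplus or damaging nucleotides. In leukemia the same enzymes act on nucleoside drugs such as cytarabine. The deoxynucleotide genes described here are *Tyms*, *Rrm1*, *Rrm2*, *Tk1*, *Dut*, *Dck*, *Dctpp1*, *Dtymk* and *Samhd1*, chosen by their function and read from the rows of these genes. Of these 9 genes, 8 were found among the 17104 genes of the expression table and all 8 were tested, while *Tk1*, the thymidine kinase of dividing cells, was not analysed here.

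The study sequenced poly(A) RNA of YFP+, c-kit+ leukemic stem cells (LSCs), sorted from the bone marrow of male C57 mice at week 6 of a secondary transplantation. The leukemia was started by retroviral MLL-AF9-IRES-YFP in lineage-negative marrow of CD37 fl/fl, Cre+ mice, in which CreERT2 is expressed from the Rosa26 locus, so both groups carry the oncogene and the floxed alleles. CD37 fl/fl LSCs (the controls) kept *Cd37*, a tetraspanin gene, and CD37 -/- LSCs lost it through tamoxifen given to the first recipients, with corn oil as the vehicle. Each group had 2 libraries, described as independent replicates, with no statement on whether a library came from 1 mouse or from pooled mice, and p-values measure the spread between these libraries only. *Cd37* itself was measured at an FPKM of 56.6 and 46.8 in CD37 fl/fl LSCs and of 23.2 and 22.9 in CD37 -/- LSCs, that is at 44.6% of the control mean. The loxP sites flank part of the gene, and reads from the rest of it are counted in these values.

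FPKM values (fragments per kilobase of length, scaled by library total) were deposited, and their kilobases proved to be those of the whole gene span, introns included. Library totals implied by the values ranged from 15327357 to 17327701 reads in CD37 fl/fl and from 17740457 to 22627492 reads in CD37 -/- LSCs, so that depth differed between the groups in the same direction as several genes below. The part of depth in these differences was not tested. Fold changes are on log2(FPKM + 1), which understates the change of a gene with a low FPKM, and were tested with limma over the 6761 genes whose FPKM averaged 1 or more. The LSCs expressed the early myeloid genes *Elane* (FPKM 1750 to 1880) and *Prtn3* (256 to 489), and *Kit*, the gene of the sorting marker, was low on this scale of span lengths (0.17 to 0.434). Of the 10 LSC and early myeloid markers, 4 were higher without overlap in CD37 -/- LSCs (*Kit*, *Cebpa*, *Meis1* and *Ptprc*), against 38.2% of all tested genes. Another 3 were lower without overlap (*Mpo*, *Prtn3* and *Ctsg*), against 23.7%. Markers of other cell types also differed between the libraries. The 7 erythroid markers in the table, led by globin genes, were all higher in both CD37 -/- libraries, with a summed FPKM of 5.17 to 60.9 in CD37 fl/fl and of 143 to 576 in CD37 -/- LSCs. The 10 neutrophil markers summed to 3690 to 18700 in CD37 fl/fl and to 10500 to 18700 in CD37 -/- LSCs, and none was at 0. Of the 10, 5 (*Ltf*, *Ngp*, *Mmp9*, *Cxcr2* and *Retnlg*) were higher without overlap in CD37 -/- LSCs and 0 lower. Among all tested genes 38.2% were higher without overlap and 23.7% lower, which is the background for the erythroid and the neutrophil counts. Among B cell markers (summed FPKM 12.8 to 15.4 in CD37 fl/fl, 6.64 to 8.46 in CD37 -/-) *Pax5* was at 0 in at least 1 library, and the 4 T and NK cell markers in the table summed to 94.7 to 118 in CD37 fl/fl and to 40.3 to 41.4 in CD37 -/- LSCs, almost all of it *Nkg7*, with *Cd3g* and *Klrb1c* at 0 in at least 1 library. The part of these cell types in the values below was not tested. In bulk RNA, fewer cells of a type and less RNA per cell cannot be told apart.

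Of the 8 genes, 5 had a higher and 3 a lower value in CD37 -/- LSCs (*Tyms* and *Dctpp1*, among the lower, were higher when every library was rescaled to the same sum), the median log2 fold change being 0.29, compared to 0.11 for all tested genes. The p-values of single genes are from limma, adjusted for multiple tests by Benjamini-Hochberg (BH) over the whole set of tested genes. None of the 8 genes reached a BH-adjusted p of 0.05 in limma (0 of 8), and nor did any tested gene (0%, with 1626 genes at an unadjusted p under 0.05). At an unadjusted p under 0.05, 2 of the 8 genes (*Dck* and *Rrm2*) were higher, where 16.1% of all tested genes were, and 0 were lower, where 7.96% were. The groups did not overlap and CD37 -/- was higher for 4 of the 8 genes (*Dck*, *Rrm2*, *Rrm1* and *Dut*), against 38.2% of all tested genes. They did not overlap and CD37 -/- was lower for 1 gene (*Dtymk*), against 23.7%. With 8 genes these counts are not far from the background, and nothing is read from them about the group.

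**Figure D1:**
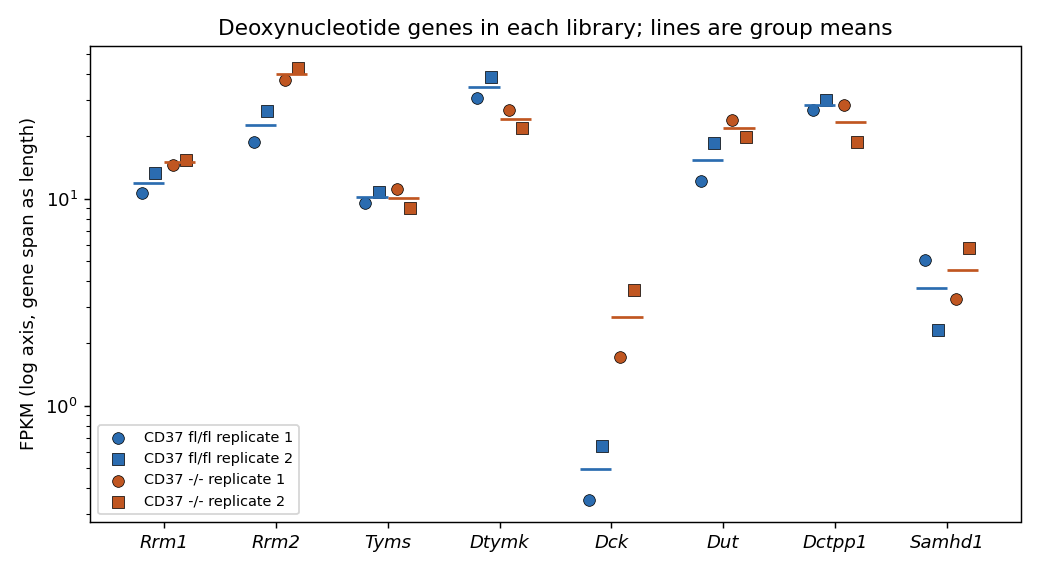
FPKM of the 8 deoxynucleotide genes on a log axis, with 1 point per library (blue, CD37 fl/fl; orange, CD37 -/-; circle, replicate 1; square, replicate 2) and a line at each group mean. *Dck* lies lowest, between 0.35 and 3.64, and its libraries are the most widely spread, whereas the points of *Tyms* lie between 8.98 and 11.1.

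Ribonucleotide reductase, the enzyme that limits the supply of all deoxynucleotides, is built from a large subunit, the product of *Rrm1*, and a small subunit that carries the radical and is made in S phase, the product of *Rrm2*. *Rrm2* (ENSMUSG00000020649) lies on the plus strand of chromosome 12 of GRCm38, from 24708241 to 24714146. Controls gave FPKM values of 18.9 and 26.5, and CD37 -/- LSCs gave 37.3 and 43.0, from 1709 to 5749 reads. A copy, *Gm48445*, shares 3.2% of the stretches of 50 bases of *Rrm2* and held at most 34 reads. Both CD37 -/- libraries lay above both controls, the lower of them by 1.41-fold over the higher control, which is as wide as the gap of 1.40-fold between the controls. The means were 22.7 ± 5.38 and 40.1 ± 4.07 (SD, n = 2), a 1.77-fold difference, with a log2 fold change of 0.81 (standard error 0.27, limma BH-adjusted p = 0.161). Without CD37 fl/fl replicate 1 it was 0.58 and without CD37 -/- replicate 2 it was 0.71, and the unadjusted p of limma was then 0.134 and 0.0892.

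*Rrm1* (ENSMUSG00000030978, chromosome 7, plus strand, from 102441695 to 102469771) was measured at FPKM 10.6 and 13.3 in controls, compared to 14.6 and 15.5 in CD37 -/- LSCs, from 4579 to 9824 reads. The groups did not overlap, but the lower CD37 -/- value was only 1.10-fold above the higher control, and the controls differed by 1.25-fold. *Gm45399*, an unclassified transcript on the same strand, overlaps *Rrm1* by 1016 bases and was not analysed here. The log2 difference was 0.31 ± 0.23 (standard error), with a limma BH-adjusted p = 0.414. It was 0.16 without CD37 fl/fl replicate 1, 0.10 with limma-voom and 0.67 after every library was rescaled to the same sum, where the unadjusted p was 0.0344.

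Within each library the 2 subunits can be compared without any scaling between libraries, as reads per kilobase of exon. All annotated exons of a gene are counted, so the size of such a ratio depends on the annotation, whereas its fold difference between libraries does not. The ratio of *Rrm2* to *Rrm1* was 1.48 and 1.66 in controls, compared to 2.13 and 2.33 in CD37 -/- LSCs. Each CD37 -/- library thus held more small-subunit RNA per large-subunit RNA than either control, with means of 1.57 ± 0.127 and 2.23 ± 0.136 (SD, n = 2). With 2 libraries against 2, an exact permutation test cannot give a two-sided p below 0.333, and the ratios, chosen after values were seen, are given as descriptions without a test. The p53-inducible small subunit *Rrm2b*, which serves DNA repair and quiescent cells, had an FPKM between 0.0821 and 0.254 with overlapping groups and was too low to be tested.

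The promoters of *Rrm1*, *Rrm2*, *Dck* and *Dtymk* are shown. *Dck* and *Rrm2* were the 2 genes with an unadjusted p under 0.05, *Dtymk* was the 1 gene lower without overlap, and *Rrm1* encodes the partner of *Rrm2*. Each sequence is the 250 bases before the RefSeq start on GRCm38.p6, 5′ to 3′ on the strand of the gene, and capitals mark a CCAAT box (CCAAT, or ATTGG on the other strand) or a GC box (GGGCGG, or CCGCCC on the other strand).

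Rrm1, chr7:102441445-102441694, plus strand: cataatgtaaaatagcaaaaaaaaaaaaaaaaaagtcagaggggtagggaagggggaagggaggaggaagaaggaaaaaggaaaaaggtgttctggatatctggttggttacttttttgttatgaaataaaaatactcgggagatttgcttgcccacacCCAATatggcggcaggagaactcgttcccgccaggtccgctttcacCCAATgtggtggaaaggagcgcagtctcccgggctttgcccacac
Rrm2, chr12:24708004-24708253, plus strand: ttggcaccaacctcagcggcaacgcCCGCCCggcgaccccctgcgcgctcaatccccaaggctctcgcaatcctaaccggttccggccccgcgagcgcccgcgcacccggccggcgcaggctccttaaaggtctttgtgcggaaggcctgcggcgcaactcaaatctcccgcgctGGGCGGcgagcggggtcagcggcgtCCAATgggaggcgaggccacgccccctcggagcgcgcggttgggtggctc
Dck, chr5:88764763-88765012, plus strand: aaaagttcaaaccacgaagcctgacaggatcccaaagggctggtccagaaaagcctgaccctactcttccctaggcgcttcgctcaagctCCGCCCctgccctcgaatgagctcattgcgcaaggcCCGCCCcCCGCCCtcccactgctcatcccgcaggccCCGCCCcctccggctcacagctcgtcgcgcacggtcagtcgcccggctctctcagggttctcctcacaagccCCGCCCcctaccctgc
Dtymk, chr1:93801935-93802184, minus strand: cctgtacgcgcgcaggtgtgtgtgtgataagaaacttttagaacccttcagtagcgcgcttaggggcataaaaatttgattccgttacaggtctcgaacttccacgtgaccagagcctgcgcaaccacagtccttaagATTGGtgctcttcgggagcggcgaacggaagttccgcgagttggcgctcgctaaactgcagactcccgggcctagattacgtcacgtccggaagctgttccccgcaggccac

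*Rrm1* held 2 CCAAT boxes, 91 and 45 bases before its start, and no GC box. *Rrm2* held 1 CCAAT box 50 bases before its start and 2 GC boxes. *Dck* held 5 GC boxes, all on the other strand, and no CCAAT box. *Dtymk* held 1 CCAAT box and no GC box. Over the 8 genes, 4 windows held a CCAAT box and 6 held a GC box, compared to 33.8% and 32.7% of 32851 promoter windows of the same length. The RefSeq starts are not all those of the gene spans given here. The whole *Dut* window and parts of the *Samhd1*, *Dctpp1*, *Rrm2* and *Dck* windows lie inside these spans. The 8-base E2F words TTTCCCGC, TTTCGCGC, TTTGCCGC and TTTGGCGC, searched on both strands, occurred in 0 of the 8 windows and in 1.86% of all windows. No boxes overlapped within the printed windows. These are matches of letters and were not tested as sites.

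Salvage is represented by *Dck*, whose kinase phosphorylates deoxycytidine, deoxyadenosine and deoxyguanosine and takes the first step in activating cytarabine. *Dck* (ENSMUSG00000029366) lies on the plus strand of chromosome 5, from 88764996 to 88783281. Controls gave FPKM values of 0.35 and 0.638, and CD37 -/- LSCs gave 1.71 and 3.64, from 98 and 202 reads against 555 and 1505 reads. Both CD37 -/- values were at least 2.68-fold above the higher control, although the replicates were 1.82-fold apart in CD37 fl/fl and 2.13-fold apart in CD37 -/- LSCs. The means were 0.494 ± 0.204 and 2.67 ± 1.36 (SD, n = 2), a 5.42-fold difference.

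*Dck* had the largest log2 fold change of the 8 genes in this fit, 1.25 (standard error 0.29, unadjusted p = 0.00547, limma BH-adjusted p = 0.112), above that of 97.1% of the tested genes. The pseudocount of 1 exceeds its control values, and with a pseudocount of 0.1 the log2 fold change was 2.18. Recovered reads in limma-voom gave 2.16 (BH-adjusted p = 0.103). Over all alternatives it ranged from 0.87, without CD37 -/- replicate 2, to 2.18, with an adjusted p from 0.0571 (replicate block) to 0.287 (without CD37 fl/fl replicate 1), and its unadjusted p stayed under 0.05 in each of the 14 in which it was tested. The deepest library had the most and the shallowest the least *Dck*, and the order of the 4 libraries by *Dck* was that of their totals, as was their order by *Rrm1* and by *Rrm2*. *Dck* lay under an FPKM of 1 in both controls and passed the filter on low values through its CD37 -/- libraries.

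The thymidine branch is carried by *Tyms*, whose product makes dTMP from dUMP, and by *Dtymk*, whose product phosphorylates dTMP to dTDP. *Tyms* (ENSMUSG00000025747, chromosome 5, minus strand, from 30058202 to 30073617) was measured at FPKM 9.58 and 10.7 in controls, compared to 11.1 and 8.98 in CD37 -/- LSCs. The CD37 -/- values lay on both sides of the controls, and the log2 difference was -0.02 ± 0.22 (standard error), with a limma BH-adjusted p = 0.97. A pseudogene, *Tyms-ps*, which shares 2.4% of its stretches of 50 bases, held at most 29 reads against 2264 or more for *Tyms*.

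*Dtymk* (ENSMUSG00000026281, chromosome 1, minus strand, from 93792576 to 93801934) was measured at FPKM 30.7 and 38.8 in controls, compared to 26.8 and 21.9 in CD37 -/- LSCs, from 4403 to 6287 reads. Both CD37 -/- libraries lay below both controls, with means of 34.7 ± 5.71 and 24.4 ± 3.49 (SD, n = 2), so that 70.2% of the control mean was measured. The log2 difference was -0.49 ± 0.26 (standard error), with a limma BH-adjusted p = 0.29, and it was -0.74 with limma-voom on recovered reads, where the unadjusted p was 0.0231. It was -0.12 after every library was rescaled to the same sum (TPM rescaling of FPKM), a scaling that moved the median of all tested genes from 0.11 to 0.40. The ratio of *Dtymk* to *Tyms*, as reads per kilobase of exon within a library, was 4.50 and 5.08 in controls, compared to 3.39 and 3.43 in CD37 -/- LSCs. Both CD37 -/- ratios were below both controls, and this difference was not tested. *Tyms* has more bases of exon than *Dtymk* (6089 against 2631), and fold changes moved with exon length across the table, as described below.

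Among the hydrolases, the product of *Dut* splits dUTP to dUMP, which keeps uracil out of DNA and feeds thymidylate synthase. *Dut* (ENSMUSG00000027203, chromosome 2, plus strand, from 125247190 to 125258608) was measured at FPKM 12.2 and 18.5 in controls, compared to 24.0 and 19.97 in CD37 -/- LSCs, from 2142 to 5160 reads. The CD37 -/- values were above both controls, the lower one by only 1.08-fold, while the controls were 1.51-fold apart. The log2 difference was 0.51 ± 0.28 (standard error), with a limma BH-adjusted p = 0.301. It was 0.23 without CD37 fl/fl replicate 1, and 0.79 without CD37 fl/fl replicate 2 and 0.87 after TPM rescaling, with an unadjusted p of 0.0495 and 0.0161. The ratio of *Dut* to *Tyms* per kilobase of exon was 2.39 and 3.23 in controls, compared to 4.04 and 4.16 in CD37 -/- LSCs.

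The product of *Dctpp1* hydrolyses dCTP and modified forms of it. *Dctpp1* (ENSMUSG00000042462, chromosome 7, minus strand, from 127256959 to 127260709) was measured at FPKM 26.8 and 30.05 in controls, compared to 28.3 and 18.8 in CD37 -/- LSCs. The groups overlapped, and the lower mean in CD37 -/- LSCs came from replicate 2. The log2 difference was -0.29 ± 0.28 (standard error), with a limma BH-adjusted p = 0.543, and -0.005 without CD37 -/- replicate 2.

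SAMHD1 cleaves dNTPs to deoxynucleosides, is abundant in myeloid cells that do not divide, and inactivates the active form of cytarabine. *Samhd1* (ENSMUSG00000027639, chromosome 2, minus strand, from 157097533 to 157135265) was measured at FPKM 5.04 and 2.32 in controls, compared to 3.29 and 5.79 in CD37 -/- LSCs. The spread between the controls, 2.17-fold, and between the CD37 -/- libraries, 1.76-fold, was larger than the 1.23-fold difference of the means. The log2 difference was 0.27 ± 0.36 (standard error), with a limma BH-adjusted p = 0.662, and its sign turned without CD37 fl/fl replicate 2 (-0.16) or without CD37 -/- replicate 2 (-0.06).

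The libraries with high *Samhd1*, CD37 fl/fl replicate 1 and CD37 -/- replicate 2, were also those with the most RNA of monocyte, macrophage and dendritic cell markers. Of the 13 markers in that list, 9 were higher in both of these libraries than in both others, compared to 8.06% of all tested genes. The others, *Cx3cr1*, *Flt3*, *Marco* and *Vcam1*, did not have this order. *Vcam1* was at FPKM 0.575 and 0.146 in controls, compared to 2.88 and 1.3 in CD37 -/- LSCs. *Csf1r*, the receptor of monocyte growth factor, was measured at FPKM 3.79 and 1.16 in controls, compared to 1.16 and 4.38 in CD37 -/- LSCs. *Adgre1*, which encodes F4/80, had 0.357 and 0.175 in controls, compared to 0.275 and 0.571 in CD37 -/- LSCs. The summed FPKM of the list was 280 and 37.6 in controls, compared to 18.7 and 58.0 in CD37 -/- LSCs. This sum was highest in CD37 fl/fl replicate 1 and lowest in CD37 -/- replicate 1. *Samhd1* was highest in CD37 -/- replicate 2 and lowest in CD37 fl/fl replicate 2, so the amounts did not follow each other. *Cd74* was the highest gene of the list in each library, and *Marco* was at 0 in at least 1 library. This pattern was noticed after the values were seen, and the part of such cells in the *Samhd1* values was not tested.

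**Figure D2:**
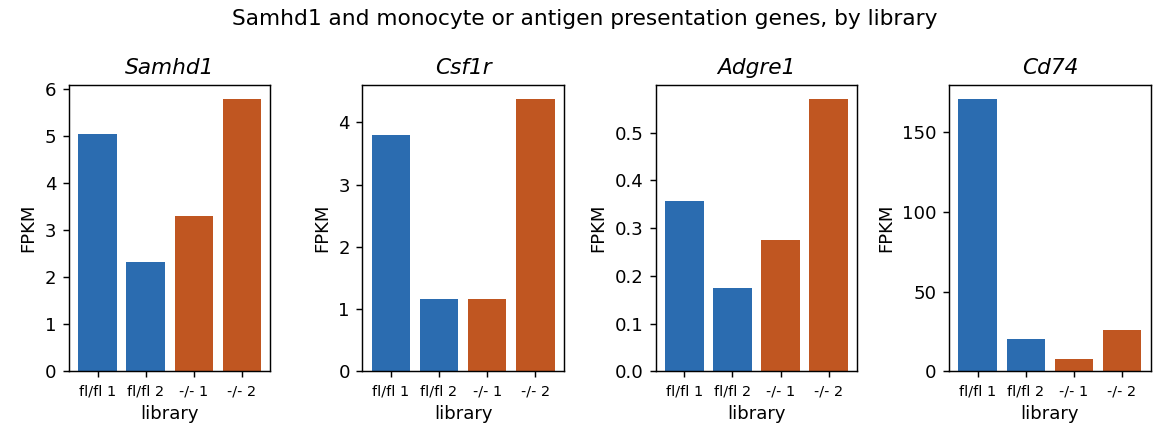
FPKM of *Samhd1*, *Csf1r*, *Adgre1* and *Cd74* in each of the 4 libraries (bars from 0, 1 library each; blue, CD37 fl/fl; orange, CD37 -/-). All 4 genes are higher in CD37 fl/fl replicate 1 and CD37 -/- replicate 2 than in the other libraries, with 5.04 and 5.79 for *Samhd1* against 2.32 and 3.29. *Csf1r*, *Adgre1* and *Cd74* are among the 9 of 13 markers with this order.

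The genes that activate and destroy cytarabine can be set side by side. Per kilobase of exon, the ratio of *Samhd1* to *Dck* was 12.3 and 3.10 in controls, compared to 1.64 and 1.36 in CD37 -/- LSCs. The CD37 -/- ratios were both lower, but the controls differed from each other by more than the lower control did from CD37 -/- replicate 1. *Slc29a1*, the nucleoside transporter, had overlapping groups (FPKM 4.18 ± 0.693 against 3.72 ± 0.536, SD, n = 2, log2 fold change -0.13). *Cmpk1*, the kinase of the next step after *Dck*, was at 2.33 ± 0.470 in CD37 fl/fl and 4.15 ± 0.282 in CD37 -/- LSCs (SD, n = 2), with a log2 fold change of 0.64 (unadjusted p = 0.0166, limma BH-adjusted p = 0.143). *Dctd*, the deaminase of dCMP, was low in all libraries (mean FPKM 0.335 and 0.383) and was not tested.

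Levels of different genes can only be compared per length, and for this the recovered reads were divided by exon length and scaled to the same sum in each library (exon TPM). Exon length counts every base in any annotated exon of a gene, from 676 for *Dctpp1* to 11012 for *Rrm1*. It can exceed the length of the RNA in the cells, and reads in introns may be included, so the order of the genes depends on the annotation. On this scale *Dctpp1* (326 ± 38.7) and *Dtymk* (255 ± 51.7) stood highest in CD37 fl/fl LSCs, followed by *Dut* (151 ± 48.9), *Rrm2* (80.6 and 119.5 in its libraries), *Rrm1* (63.1 ± 12.3), *Tyms* (53.0 ± 6.24), *Samhd1* (31.0 ± 15.1) and *Dck* (4.96 ± 2.22, all SD, n = 2). The neighbours *Dut* and *Rrm2*, and *Rrm1* and *Tyms*, overlapped in their libraries. In CD37 -/- LSCs the order was *Dctpp1* (312 ± 62.1), *Dut* (251 ± 10.5), *Rrm2* and *Dtymk* (208 ± 39.4 and 208 ± 11.3), *Rrm1* (92.9 ± 12.0), *Tyms* (61.2 ± 3.86), *Samhd1* (46.1 ± 21.6) and *Dck* (32.0 ± 18.7, all SD, n = 2). There *Rrm2* and *Dtymk*, *Samhd1* and *Tyms*, and *Samhd1* and *Dck* overlapped. As a share of the reads per kilobase of the 8 genes, *Dtymk* took 25.4% and 26.4% in controls, compared to 17.9% and 16.5% in CD37 -/- LSCs, and *Rrm2* took 9.36% and 10.8% against 14.9% and 19.4%. *Dck* took 0.393% and 0.59% against 1.55% and 3.73%, so it stayed a small part of the group in every library.

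**Figure D3:**
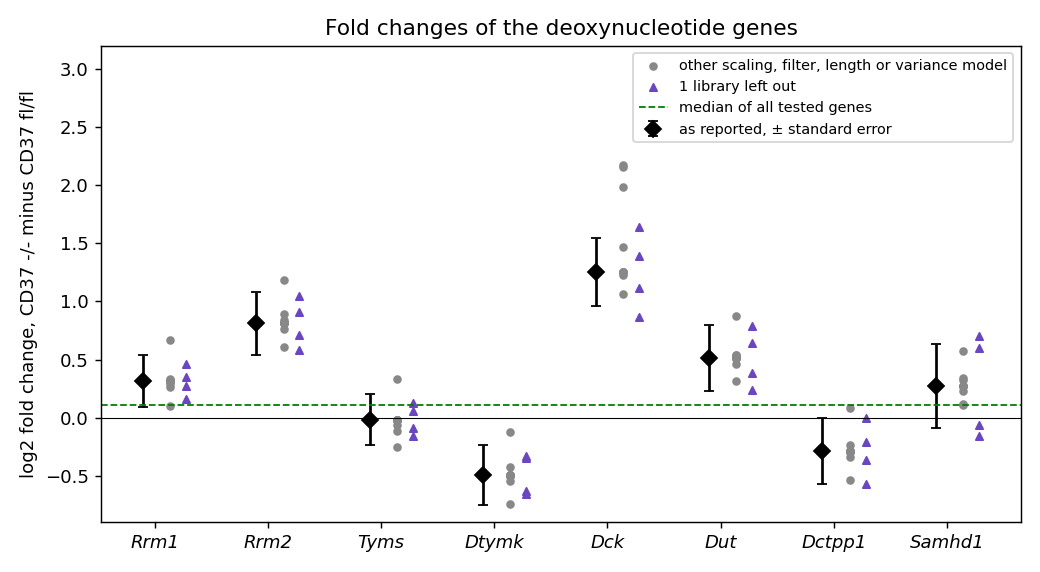
Log2 fold changes (CD37 -/- minus CD37 fl/fl, on log2(FPKM + 1)) of the 8 genes, as diamonds with their standard error, beside other scalings, filters, lengths and variance models (grey points) and fits with 1 library left out (purple triangles). *Dck* and *Rrm2* lie above 0 under every alternative, and the points of *Tyms*, *Dctpp1* and *Samhd1* fall on both sides of 0. The dashed line is the median of all tested genes, 0.11.

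Gene length moved with the fold change across the table. Tested protein-coding genes with under 1500 bases of exon gave a median log2 difference of -0.35 (566 genes), and those with 6000 or more had 0.24 (1236 genes). The median was -0.04 with 1500 to 3000 bases (1527 genes) and 0.18 with 3000 to 6000 bases (2439 genes). *Dctpp1* (676 bases of exon) had a log2 fold change of -0.29, *Dut* (2410) 0.51, *Dtymk* (2631) -0.49 and *Rrm2* (2771) 0.81. For *Dck* (3781 bases), *Tyms* (6089), *Samhd1* (9150) and *Rrm1* (11012) it was 1.25, -0.02, 0.27 and 0.31. The part of length in the values of single genes, and in the ratios between genes of unlike length, was not tested.

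The other enzymes of the pathway were taken from lists written with earlier results of these data known. Of 19 other dNTP enzymes, 12 were tested, with 5 higher and 7 lower and a median log2 fold change of -0.14, and at an unadjusted p under 0.05 there were 2 higher and 1 lower, against 16.1% and 7.96% of all tested genes. The higher ones were *Cmpk1* and *Cmpk2*, a mitochondrial nucleotide kinase that interferon induces (FPKM 0.503 ± 0.0949 and 1.73 ± 0.887, SD, n = 2, log2 fold change 0.82), and the lower one was *Guk1*, the guanylate kinase (7.83 ± 0.235 and 5.33 ± 0.413, SD, n = 2, -0.48). *Cmpk2* lay under an FPKM of 1 in both controls and passed the filter through its CD37 -/- libraries. The adjusted p was 0.15 for *Cmpk2* and 0.198 for *Guk1* (limma, BH). For 5 of these 12 genes the CD37 -/- libraries lay below both controls without overlap, against 23.7% of all tested genes, namely *Guk1*, *Nudt1*, which clears oxidized nucleotides, *Itpa*, which clears deaminated ones, *Nt5c*, a nucleotidase, and *Dguok*, the mitochondrial deoxyguanosine kinase.

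The folate cycle hands its one-carbon unit to thymidylate synthase. Of its 6 genes 5 were tested, and their median was -0.04 on the log2 scale, with 0 genes at an unadjusted p under 0.05 in limma. The range ran from *Shmt2* (-0.23), the mitochondrial serine hydroxymethyltransferase, to the cytosolic *Shmt1* (0.28). The 7 genes of pyrimidine synthesis gave 6 tested genes with a median of 0.07 and 0 at an unadjusted p under 0.05, from *Umps* (-0.54), which completes UMP, to *Cad* (0.54), which starts the route. In purine synthesis and salvage, 14 of 17 genes were tested, 8 higher and 6 lower, with a median of 0.22. Here 2 of the 14 were higher at an unadjusted p under 0.05, where 16.1% of all tested genes were, *Ada*, the adenosine deaminase (FPKM 1.99 ± 1.33 and 5.08 ± 0.193, SD, n = 2, log2 fold change 1.10, adjusted p = 0.142), and *Gart*, which catalyses several steps of purine synthesis (3.68 ± 1.26 and 7.25 ± 1.48, SD, n = 2, 0.84, limma BH-adjusted p = 0.151).

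The consumers of dNTPs were compared as lists, without a test of the difference. The 11 tested MCM and licensing genes gave a median log2 difference of 0.33, with 9 higher, and *Mcm4* (1.21), *Mcm2* (1.14) and *Cdc6* (0.84) had an unadjusted p under 0.05 in limma, 3 of 11 where 16.1% of all tested genes were higher at that p. The 19 tested genes of the replication fork had a median of 0.11, with 13 higher. There *Fen1* (1.05), *Pcna* (0.94) and *Rfc1* (0.45) were higher and *Rfc2* (-0.69) was lower at that p, 3 and 1 of 19 against 16.1% and 7.96% of all tested genes. The FPKM of *Fen1* averaged 0.881 in controls and 2.86 in CD37 -/- LSCs, so *Fen1* passed the filter on low values through its CD37 -/- libraries. In these lists, 0 genes reached a BH-adjusted p of 0.05 in limma. Against *Pcna*, the sliding clamp of the fork, the ratio of *Rrm2* per kilobase of exon was 0.650 and 0.636 in controls and 0.574 and 0.612 after deletion. This ratio was lower in both CD37 -/- libraries, whereas that of *Rrm2* to *Rrm1* was higher.

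**Figure D4:**
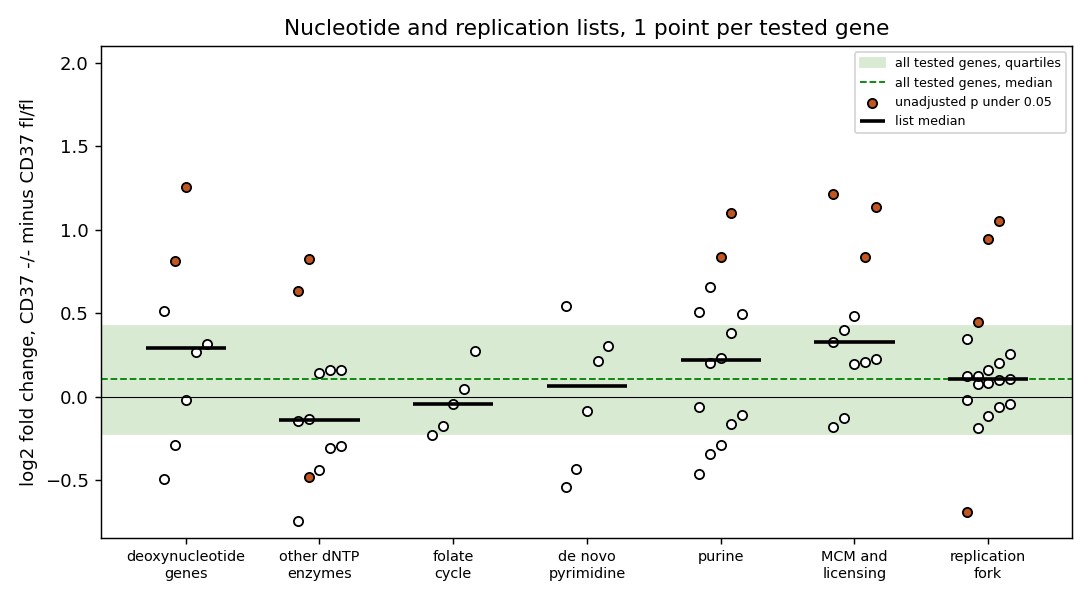
Log2 fold changes (CD37 -/- minus CD37 fl/fl, on log2(FPKM + 1)) of tested genes in 7 lists, 1 point per gene, filled where the unadjusted p of limma was under 0.05, with a bar at the list median. The green band spans the quartiles of all tested genes, -0.22 to 0.42, around their median of 0.11, and all 7 list medians lie inside it.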

How the data were processed

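Poly(A) RNA of sorted LSCs was sequenced in 4 libraries, 2 per genotype, and the groups were taken from the genotype labels. The authors deposited unlogged FPKM values in 4 columns, 1 for each library. The submitters' processing notes name fastp 0.20.1, STAR 2.7.7a, featureCounts 2.0.0, edgeR and the build mm39, without roles, and the annotation is not given in the sources used here. The study's methods name limma for its comparison.

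Gene names and coordinates are those of GENCODE M21 on GRCm38 (not the build of the notes), matched to 17045 of 17104 identifiers (99.7%), and promoters are from RefSeq (GRCm38.p6, all 8 genes matched). FPKM multiplied by gene span gave whole reads, within 0.05, for 99.0% of values in each library, where chance gives 10.0%, and these reads set the library totals. Since the length is the span, reads in introns may have been counted.

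Genes whose FPKM averaged 1 or more were tested on log2(FPKM + 1) with limma 3.58.1 (lmFit, eBayes with trend; R 4.3.3, statmod 1.5.0) and Benjamini-Hochberg adjustment, without a block, and the code was tested on simulated data. Tables used pandas 2.3.3 and numpy 2.4.6, and plots matplotlib 3.10.9, under Python 3.11.15. The genes and lists were chosen with earlier results of these data known, and the ratios, length classes and promoter motifs after values were seen. Named genes of the other lists had an unadjusted p under 0.05 or the extreme fold changes of a list without such genes, and *Slc29a1*, *Dctd*, *Rrm2b*, *Nudt1*, *Itpa*, *Nt5c* and *Dguok* were added after their values were seen. Values of some single genes of the lists are not reported here. Alternatives were quantile scaling, TPM rescaling (each FPKM column brought to the same sum), upper quartile scaling, a pseudocount of 0.1, no filter beyond a value above 0, an average FPKM of 5 or more, eBayes without trend or robust, a replicate block, each library left out, limma-voom on recovered reads (mean of at least 10, TMM scaling) and, added after seeing the data, exon length in place of span.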

Additional observations from a re-analysis of the deposited data

How the results depend on the processing

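With 2 libraries per group, each left out in turn, the number of the 8 genes at an unadjusted p under 0.05 in limma ran from 1 to 3 (2 as reported) and their median log2 fold change from 0.20 to 0.37, with 1 gene where CD37 fl/fl replicate 1 or CD37 -/- replicate 2 was left out. With TPM rescaling it was 4 of the 8 and the median was 0.62, while the count over all tested genes went from 1626 to 2242 and their median to 0.40. With only genes averaging an FPKM of 5 or more, which leaves out *Dck* and *Samhd1*, there was 1 gene and the median was 0.15, and 45 genes of the whole table had an adjusted p under 0.05. With limma-voom the median was 0.11. Robust variance estimation gave 88 such genes and the replicate block 73, compared to 0 as reported (1626 at an unadjusted p under 0.05), and in none of these fits did 1 of the 8 genes have an adjusted p under 0.05. The number at an unadjusted p was 2911 with all genes above 0, 3122 with limma-voom, 755 with that filter at 5 and 809 without CD37 -/- replicate 2. No source says that replicate numbers pair the samples, and the deviations of libraries with the same number correlated at -0.04 across tested genes. Signs turned for *Tyms* (0.33) and *Dctpp1* (0.079) with TPM rescaling, and with 1 library left out *Tyms* ran from -0.16 to 0.12 and *Samhd1* from -0.16 to 0.70. *Dck*, *Rrm2*, *Rrm1*, *Dut* and *Dtymk* kept their sign under every alternative in which they were tested. The causes of these shifts were not tested, and the filter at 5 also tests fewer genes.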
